A study of Mus musculus with 11 samples.

Results

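The genes described here are 34 genes of cholesterol and fatty acid synthesis and of its control, taken by symbol from a list and matched to the Ensembl identifiers of the mouse GENCODE annotation. All 34 were among the 39179 gene identifiers of the table and among the 15781 genes with a mean of 10 or more that were tested. The sterol branch holds 19 genes, the SREBP control genes are 4, and the fatty acid branch holds 11. RNA was sequenced, with Illumina's TruSeq RNA kit, from Mettl3-KO and WT mouse embryonic stem cells (ESCs) of the C57BL/6 strain and from their embryoid bodies (EBs), floating clusters of differentiating cells. Mettl3 encodes the catalytic subunit of the enzyme that writes N6-methyladenosine on messenger RNA. The groups are KO ESCs and WT ESCs with 3 libraries each (A, B and C), and KO EBs and WT EBs with 2 libraries each (A and B). The labels name replicates without saying whether they were separate cultures, so p-values measure the spread between these libraries, which may be technical. They do not give how many KO clones were used or which part of Mettl3 was deleted. ESCs grew without serum in N2B27 medium with LIF and the inhibitors CHIR99021 (1 to 3 μM) and PD0325901 (1 μM). EBs grew for 8 to 21 days without attachment in a fibroblast medium with 15% fetal bovine serum, described without LIF or either inhibitor. Differentiation, serum and the absence of inhibitors therefore cannot be told apart in any comparison of EBs with ESCs.

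Cells build cholesterol from acetyl-CoA through mevalonate, farnesyl pyrophosphate, squalene and lanosterol, and build fatty acids from the same acetyl-CoA through malonyl-CoA. The transcription factors SREBP-1 and SREBP-2, made from Srebf1 and Srebf2, switch on nearly all of these enzymes. When sterols are plentiful, Insig proteins hold the SREBP escort Scap in the endoplasmic reticulum. When sterols are scarce, Scap carries SREBP to the Golgi, where it is cleaved and released to the nucleus. SREBP-2 is known mainly for sterol genes and SREBP-1 for fatty acid genes, and serum brings lipoprotein cholesterol to cultured cells.

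The ESC replicate C libraries, which the labels mark as used for a SILAC protein analysis, stand apart from A and B, so results are given with and without them. They hold 3075007 reads in genes (KO) and 3026837 (WT), against 8523027 to 15426894 in the other 8 libraries. Across the tested genes, log2 values of A and B correlated at r = 0.990 in KO ESCs and in WT ESCs, and values of C with A or B at 0.653 to 0.692. Mettl3 itself had 138, 133 and 130.5 normalized counts in KO ESCs, against 422, 392 and 425 in WT ESCs, and 154 and 147 in KO EBs, against 399 and 368 in WT EBs. It fell by 1.62 ± 0.14 on the log2 scale in ESCs (adjusted p = 0.0123) and by 1.34 ± 0.17 in EBs (adjusted p = 0.0143, SE in both). All 10 libraries enter the 10-library fit, and the 8-library fit leaves out both C libraries. The 8-library fit measures the spread between A and B alone, and between 16.3% and 27.9% of all tested genes pass in each direction there, so its counts are set beside those shares. Log2 differences are of normalized counts plus 1, and adjusted p is by limma with Benjamini-Hochberg adjustment over all 15781 genes, with 0.05 as the threshold.

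The promoters are shown because SREBP acts on these genes through short sites near their starts. RefSeq promoters (build GRCm38.p6, 250 bases before to 50 after the start) of 27 of the 34 genes were searched, 34 promoters in all. No promoter was searched for the other 7, which are Fdps, Fdft1, Sqle, Stard4, Scd1, Scd2 and Fads1. The shares of the 34 genes and of their branches leave these 7 out. The motifs searched on both strands were the sterol element TCACNCCAC, the CCAAT box (those 5 letters) and the Sp1 box GGGCGG, none of which is contained in another. The sterol element was found in 1 of the 34 promoters, that of Hmgcs1, and in 1.24% of the 32851 promoters in the table. CCAAT was in 14 of the 18 sterol promoters (77.8%), in 4 of 9 fatty acid promoters (44.4%) and in 4 of 7 promoters of control genes (57.1%), against 37.4% of all promoters and 38.2% of those of protein-coding genes. GGGCGG was in 15 of 18 sterol promoters (83.3%), in 4 of 9 fatty acid promoters and in 6 of 7 of control genes (85.7%), against 35.7% of all promoters and 46.2% of those of protein-coding genes. A match describes letters and not a bound site. The promoters printed here are that of Hmgcs1, with the sterol element at -137, those of Cyp51 and Msmo1, where KO and WT ESCs did not overlap, and that of Insig1, which had the largest KO difference in EBs. Capitals mark the sterol element and the CCAAT box on either strand, at -29 in Cyp51, at -160, -96 and -55 in Msmo1 and at -216 in Insig1.
Hmgcs1 (chr13:119690101-119690400, plus strand): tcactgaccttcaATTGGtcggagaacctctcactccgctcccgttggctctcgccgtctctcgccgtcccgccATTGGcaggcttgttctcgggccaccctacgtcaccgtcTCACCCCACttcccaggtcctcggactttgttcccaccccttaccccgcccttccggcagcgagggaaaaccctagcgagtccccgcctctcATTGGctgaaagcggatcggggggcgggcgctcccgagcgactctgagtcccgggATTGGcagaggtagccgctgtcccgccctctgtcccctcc
Cyp51 (chr5:4104648-4104947, minus strand): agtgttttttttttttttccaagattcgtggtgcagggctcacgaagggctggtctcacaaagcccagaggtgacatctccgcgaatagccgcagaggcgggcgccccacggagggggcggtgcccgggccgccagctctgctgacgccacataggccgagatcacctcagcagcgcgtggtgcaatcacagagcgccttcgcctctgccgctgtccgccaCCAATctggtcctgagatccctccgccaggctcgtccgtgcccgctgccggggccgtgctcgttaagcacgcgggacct
Msmo1 (chr8:64733529-64733828, minus strand): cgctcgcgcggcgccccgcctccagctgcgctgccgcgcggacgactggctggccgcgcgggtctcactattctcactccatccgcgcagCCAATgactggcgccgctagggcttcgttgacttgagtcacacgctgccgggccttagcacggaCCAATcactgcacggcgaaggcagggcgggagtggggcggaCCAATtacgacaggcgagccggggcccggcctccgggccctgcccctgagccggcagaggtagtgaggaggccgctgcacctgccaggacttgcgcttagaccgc
Insig1 (chr5:28071162-28071461, plus strand): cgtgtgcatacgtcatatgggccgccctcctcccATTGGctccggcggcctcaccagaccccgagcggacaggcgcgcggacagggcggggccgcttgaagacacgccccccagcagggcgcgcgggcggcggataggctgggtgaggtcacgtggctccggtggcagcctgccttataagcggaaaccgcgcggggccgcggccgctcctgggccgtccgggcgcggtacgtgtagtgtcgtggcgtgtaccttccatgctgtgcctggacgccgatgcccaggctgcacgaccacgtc

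KO ESCs had less RNA of most sterol genes than WT ESCs. Without replicate C, 16 of the 19 sterol genes fell and 1, Sc5d, rose, against 27.8% and 27.4% of all genes tested. With all 10 libraries the median difference of the sterol genes was -0.83, against -0.02 for all genes tested. In that fit 1 sterol gene, Acat2, fell and 0 rose, against 1.07% and 1.31% of all genes. Within same-lettered libraries, KO was below WT for 17 of 19 sterol genes in A, 18 in B and 16 in C, and for 16 in all 3, as it was for 27.8% of all genes tested. In bulk RNA, fewer cells that carry a transcript and less of it per cell cannot be told apart.

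**Figure D1:**
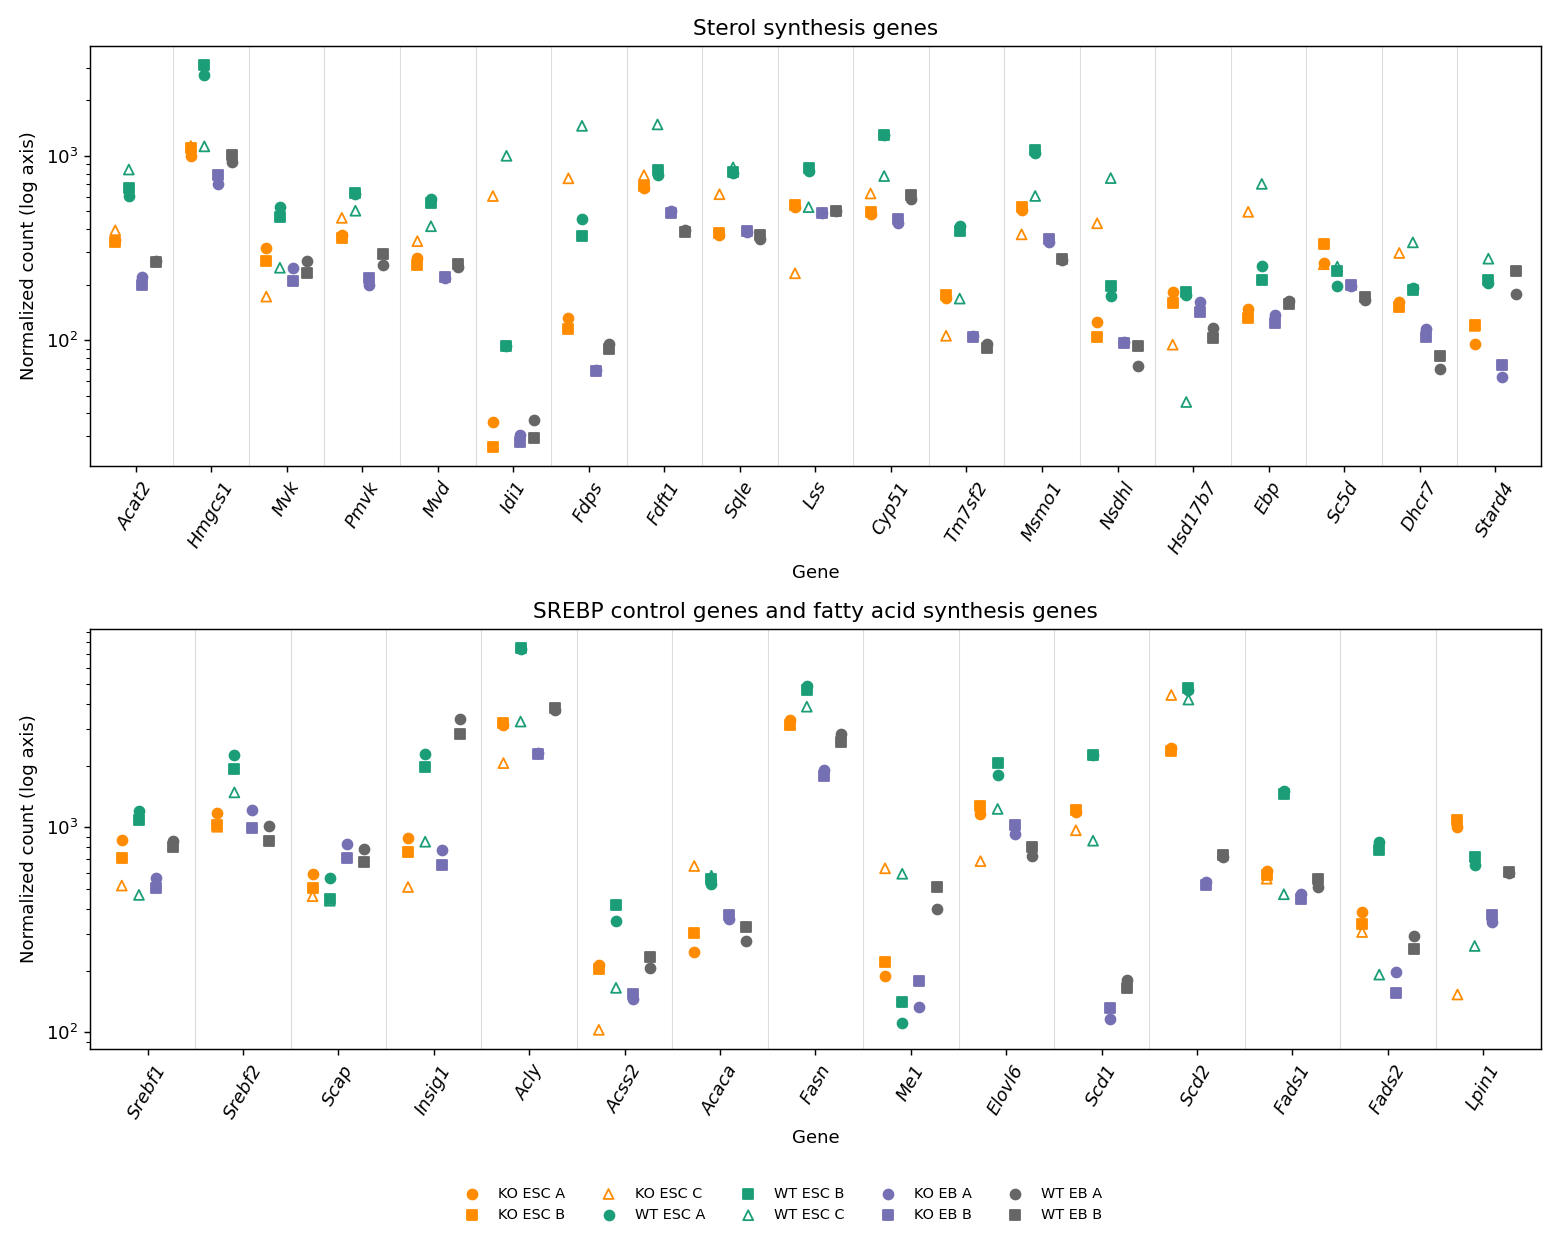
Normalized count (log axis) of each of the 34 genes in each of the 10 libraries, in columns for KO ESCs, WT ESCs, KO EBs and WT EBs. Open triangles are the ESC replicate C libraries. For most sterol genes the filled orange symbols (KO ESCs A and B) lie below the green ones (WT ESCs A and B), and for Idi1, Fdps, Nsdhl and Ebp the C libraries lie far above A and B.

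In the 10-library fit of KO against WT ESCs, 0 of the 34 genes rose and 1 fell, against 1.31% and 1.07% of all genes tested. An unadjusted p under 0.05 was found there for 16 of the 34, and for 2710 of all 15781 genes tested. In the 8-library fit 3 rose and 28 fell, against 27.4% and 27.8% of all genes. The letters were taken as pairs in ESCs, and the fit with the replicate letter as a block called 0 higher and 19 lower, against 14.0% and 15.3%. Those 19 were 13 sterol genes, Srebf2, Insig1 and 4 fatty acid genes. DESeq2 on the recovered reads of all 10 libraries called 13 lower, against 5.83% of all genes. All KO libraries lay below all WT libraries for 10 genes (8.78% of all genes did so) and above them for 1 (9.23%). The 10 were Acat2, Pmvk, Mvd, Sqle, Cyp51, Msmo1, Stard4, Srebf2, Acly and Fasn, and the 1 was Sc5d.

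The enzymes that lead to mevalonate and farnesyl pyrophosphate come first. Acat2, the cytosolic thiolase that joins acetyl-CoA units, had normalized counts of 349, 341 and 394 in KO ESCs, against 604, 667 and 843 in WT ESCs. Every KO library lay below every WT library, and the difference was -0.95 ± 0.17 (SE, adjusted p = 0.0395) with all libraries and -0.88 ± 0.09 (SE, adjusted p = 8.46e-05) without C. Leaving out any single library other than an ESC replicate C library took the adjusted p of Acat2 in the 10-library fit above the threshold, to between 0.108 and 0.172. The call was also lost with no filter on low values and when only the ESC groups were fitted. Acat2 shares 39.1% of its 50-base words with other genes, among them Acat3 and Tcp1, so its counts are uncertain.

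Hmgcs1, the synthase that makes HMG-CoA, had 998, 1098 and 1130.4 in KO ESCs, against 2764, 3115 and 1127 in WT ESCs. KO and WT lay far apart in A and B and at the same level in C. The difference was -0.99 ± 0.36 (SE, adjusted p = 0.202) with all libraries and -1.49 ± 0.10 (SE, adjusted p = 7.49e-06) without C. Mvk, mevalonate kinase, had 315, 269 and 172 in KO ESCs, against 525, 466 and 247 in WT ESCs, and its KO library A lay above WT library C. The kinase Pmvk had 371, 357 and 461 in KO ESCs, against 621, 628 and 504 in WT ESCs, with no overlap. Mvd, the decarboxylase that yields isopentenyl pyrophosphate, had 280.2, 256 and 344 in KO ESCs, against 583, 553 and 415 in WT ESCs, again with no overlap. The 8-library differences were -0.77 ± 0.13 (SE, adjusted p = 0.00118) for Mvk, -0.78 ± 0.10 (SE, adjusted p = 0.000212) for Pmvk and -1.08 ± 0.09 (SE, adjusted p = 2.29e-05) for Mvd.

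Idi1, the isomerase of isopentenyl pyrophosphate, had 35.9, 26.3 and 605 in KO ESCs, against 93.0, 93.1 and 1001 in WT ESCs. KO was below WT in each lettered pair, while both C libraries stood far above A and B. The difference was -1.29 ± 1.33 (SE, adjusted p = 0.769) with all libraries, -1.57 ± 0.21 (SE, adjusted p = 0.000299) without C and -1.29 ± 0.24 (SE, adjusted p = 0.0172) with the replicate block. Fdps, which makes farnesyl pyrophosphate, had 132, 114 and 755 in KO ESCs, against 456, 368 and 1456 in WT ESCs, the same pattern at higher counts. Its differences were -1.47 ± 0.78 (SE, adjusted p = 0.414) with all libraries, -1.73 ± 0.14 (SE, adjusted p = 1.94e-05) without C and -1.47 ± 0.19 (SE, adjusted p = 0.00734) with the block, the largest fall of the 34 genes both with all libraries and without C. Idi1 and Fdps share 25.3% and 26.2% of their 50-base words with other gene models, so reads could be split between them.

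**Figure D2:**
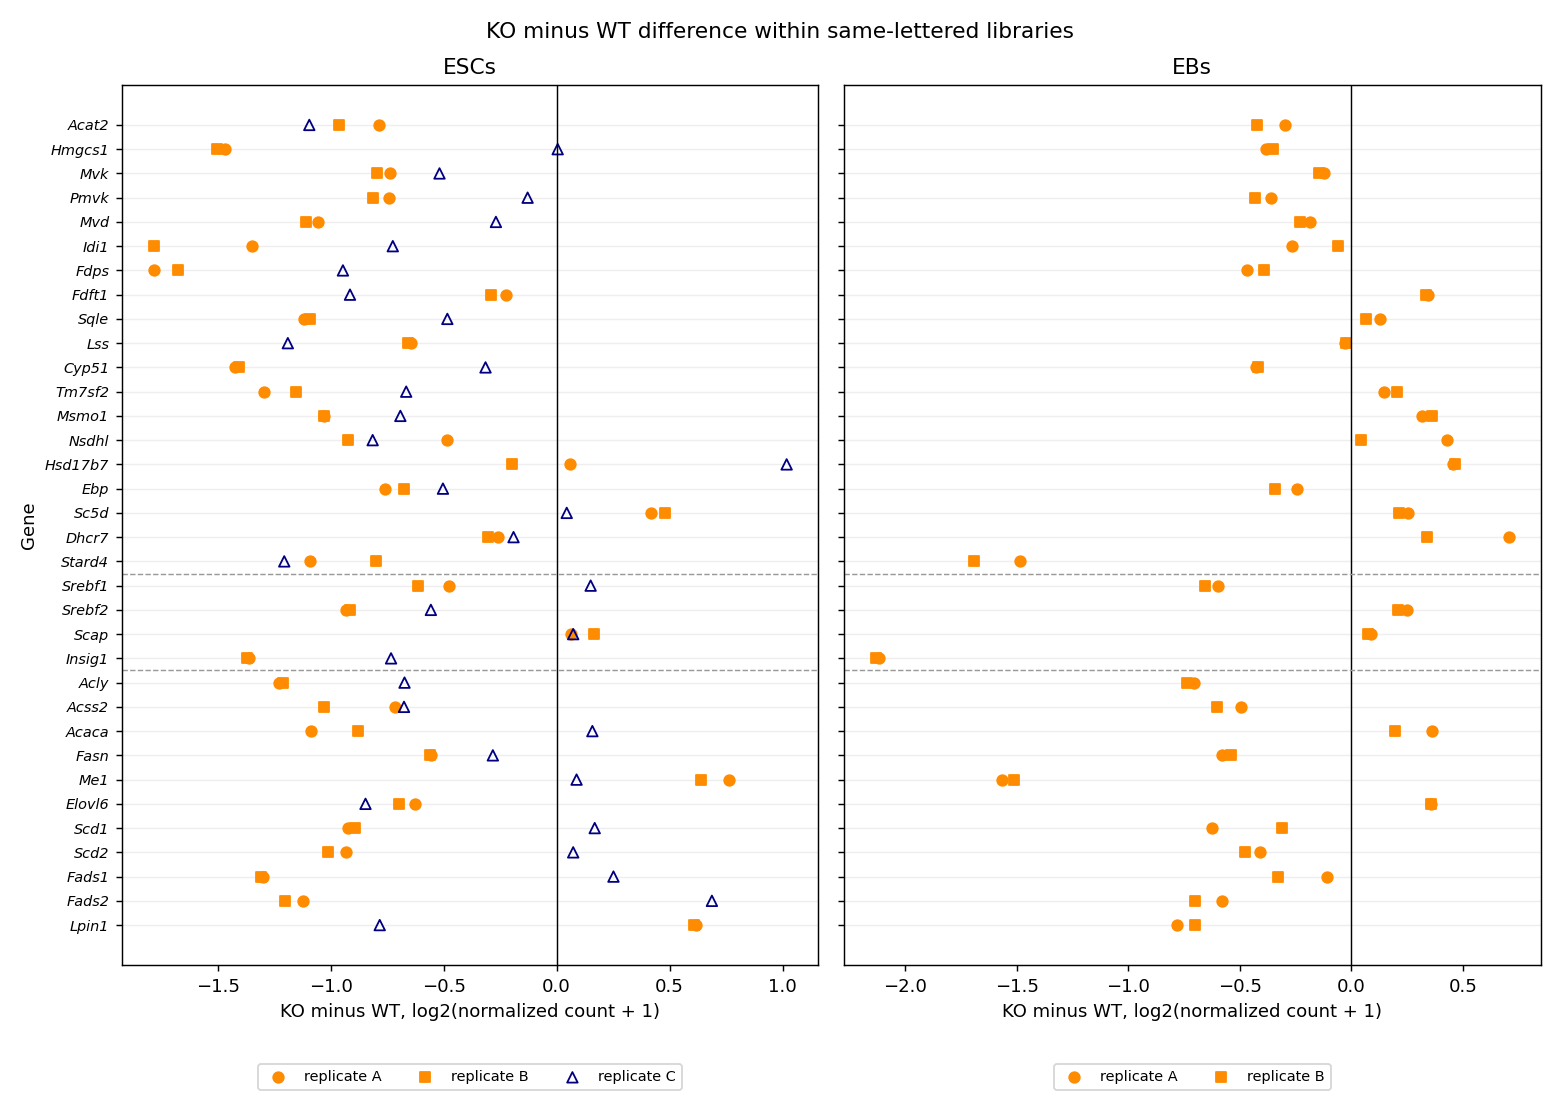
KO minus WT difference in log2(normalized count + 1) of each gene within same-lettered libraries, ESCs on the left and EBs on the right, with dashed lines between the sterol, control and fatty acid genes. In ESCs the sterol medians are -0.79, -0.92 and -0.52 in A, B and C, and the fatty acid medians -0.92, -0.89 and 0.07.

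Among the squalene and ring-forming steps, Fdft1, squalene synthase, had 671, 686 and 786 in KO ESCs, against 785, 839 and 1482 in WT ESCs, and KO library C overlapped the WT range. It overlaps Ctsb, on the other strand, over 18.3% of its exon bases, and the strand setting of the counting is not given in the sources used here. Sqle, squalene epoxidase, had 374, 383 and 619 in KO ESCs, against 812, 817 and 866 in WT ESCs, with no overlap. Its difference was -0.90 ± 0.21 (SE, adjusted p = 0.0697) with all libraries and -1.10 ± 0.08 (SE, adjusted p = 9.37e-06) without C. Lss, lanosterol synthase, had 531, 543 and 231 in KO ESCs, against 829.8, 856 and 527 in WT ESCs, with C lowest in each genotype.

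Of the enzymes that trim lanosterol, Cyp51, the lanosterol demethylase, had 486, 493 and 625 in KO ESCs, against 1306, 1307 and 777 in WT ESCs. The groups did not overlap, and the difference was -1.05 ± 0.23 (SE, adjusted p = 0.0613) with all libraries, -1.41 ± 0.07 (SE, adjusted p = 2.66e-06) without C and -1.05 ± 0.24 (SE, adjusted p = 0.0304) with the block. Tm7sf2, a sterol reductase, had 169.8, 175 and 106 in KO ESCs, against 418, 392 and 168 in WT ESCs, and its WT library C fell within the KO range. Its difference was -1.04 ± 0.38 (SE, adjusted p = 0.209) with all libraries and -1.23 ± 0.10 (SE, adjusted p = 2.36e-05) without C. Msmo1, the sterol C4-methyl oxidase, had 507, 526 and 375 in KO ESCs, against 1037, 1075 and 606 in WT ESCs, with no overlap, and differed by -0.92 ± 0.25 (SE, adjusted p = 0.106) with all libraries and -1.03 ± 0.08 (SE, adjusted p = 1.38e-05) without C.

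Nsdhl and Ebp, a dehydrogenase and an isomerase of the same stretch, are both on the X chromosome. Nsdhl had 125, 104 and 430.5 in KO ESCs, against 175, 197 and 758 in WT ESCs, and Ebp had 148, 132 and 497 in KO ESCs, against 251, 211 and 705 in WT ESCs. KO was below WT in each pair of each gene, and C was the highest library in each genotype. The median difference of the other genes on X was -0.15, beside -0.74 for Nsdhl and -0.65 for Ebp in the same 10-library fit. Sc5d, the lathosterol oxidase, had 262, 332 and 258 in KO ESCs, against 196, 238 and 250.3 in WT ESCs, and every KO library lay above every WT library. It was the only sterol gene that rose in the 8-library fit, by 0.45 ± 0.14 (SE, adjusted p = 0.0232). Dhcr7, the reductase of the last step of that route, had 161, 151 and 297 in KO ESCs, against 192, 186 and 339 in WT ESCs. It passed in neither fit, at -0.25 ± 0.34 (SE, adjusted p = 0.865) with all libraries and -0.28 ± 0.13 (SE, adjusted p = 0.0874) without C, and Hsd17b7, a sterol ketoreductase, passed in neither as well. Stard4, a carrier of cholesterol between membranes, had 95.2, 121 and 119 in KO ESCs, against 204, 211 and 277 in WT ESCs. Its groups did not overlap, and the difference was -1.03 ± 0.23 (SE, adjusted p = 0.0615) with all libraries and -1.03 ± 0.13 (SE, adjusted p = 0.00725) with the block.

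Of the SREBP control genes in ESCs, Srebf2 had 1179.7, 1023 and 1005 in KO ESCs, against 2249.7, 1930.4 and 1479 in WT ESCs, with no overlap. The difference was -0.80 ± 0.19 (SE, adjusted p = 0.0777) with all libraries, -0.92 ± 0.13 (SE, adjusted p = 0.000478) without C and -0.80 ± 0.10 (SE, adjusted p = 0.00612) with the block. Insig1, which holds Scap back and is itself a target of SREBP, had 886, 760.1 and 511 in KO ESCs, against 2275, 1967 and 849.9 in WT ESCs. WT library C lay within the KO range, and the difference was -1.15 ± 0.38 (SE, adjusted p = 0.17) with all libraries and -1.37 ± 0.13 (SE, adjusted p = 4.33e-05) without C. Srebf1 had 866, 706 and 519 in KO ESCs, against 1205, 1082 and 468 in WT ESCs, and its pair C went the other way. Scap passed in neither fit, with 593, 503 and 461 in KO ESCs, against 567, 449 and 438 in WT ESCs and a difference of 0.10 ± 0.17 (SE, adjusted p = 0.92) with all libraries.

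In the fatty acid branch, KO ESCs were below WT ESCs in both A and B for 9 of 11 genes, as for 44.8% of all genes tested, and in C for 5 of 11. In the 8-library fit 9 of the 11 fell and 2, Me1 and Lpin1, rose, against 27.8% and 27.4% of all genes. In the 10-library fit 0 passed, while 1.07% of all genes fell and 1.31% rose. An unadjusted p under 0.05 was found in that fit for 4 of the 11, and for 2710 of all 15781 genes. The 10-library median was -0.60. Acly, which makes cytosolic acetyl-CoA from citrate, had 3168, 3233 and 2055 in KO ESCs, against 7414, 7486 and 3278 in WT ESCs. The groups did not overlap, and the difference was -1.04 ± 0.34 (SE, adjusted p = 0.167) with all libraries and -1.22 ± 0.06 (SE, adjusted p = 2.36e-06) without C. Fasn, fatty acid synthase, had 3325, 3150.4 and 3186 in KO ESCs, against 4893, 4648 and 3874 in WT ESCs, also with no overlap, and differed by -0.47 ± 0.14 (SE, adjusted p = 0.132) with all libraries and -0.56 ± 0.08 (SE, adjusted p = 0.000341) without C. Acly, Fasn, Acaca and Srebf1 are on chromosome 11, where the median difference of the other genes was -0.23, and the part of the chromosome in these differences was not tested.

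Acss2, which makes acetyl-CoA from acetate, had 212, 203 and 103 in KO ESCs, against 348, 416 and 165 in WT ESCs, with C lowest in each genotype. Acaca, the acetyl-CoA carboxylase that makes malonyl-CoA, had 247, 303 and 647 in KO ESCs, against 526, 559 and 579.7 in WT ESCs, and pair C went the other way. Elovl6, the elongase of palmitate, had 1163, 1269.6 and 683 in KO ESCs, against 1795, 2062 and 1229 in WT ESCs, with KO below WT in each pair. The block difference was -0.72 ± 0.07 (SE, adjusted p = 0.00446) for Elovl6 and -0.60 ± 0.25 (SE, adjusted p = 0.137) for Acaca. This carboxylase gene shares 30.4% of its 50-base words with other genes.

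The desaturases parted by library. Scd1, which makes oleate from stearate, had 1189, 1215 and 967 in KO ESCs, against 2253, 2253 and 859.7 in WT ESCs, and Scd2, its close relative, had 2437, 2358 and 4416 in KO ESCs, against 4648, 4754 and 4197 in WT ESCs. In both, KO was far below WT in A and B and slightly above it in C. Fads1 and Fads2, the desaturases of polyunsaturated fatty acids, had 611, 588 and 561 in KO ESCs, against 1505, 1455 and 471 in WT ESCs for Fads1 and 388, 338 and 308 in KO ESCs, against 845, 778 and 191 in WT ESCs for Fads2. Their KO minus WT differences in pair C were 0.25 and 0.69, opposite in sign to A and B. Without C, Fads1 differed by -1.30 ± 0.08 (SE, adjusted p = 5.57e-06) and Fads2 by -1.16 ± 0.14 (SE, adjusted p = 0.000151). Lpin1, the phosphatase that makes diacylglycerol, had 1005, 1086 and 153 in KO ESCs, against 655, 713 and 264 in WT ESCs. It was higher in KO in A and B and lower in C. Me1, the malic enzyme that supplies NADPH, had 189, 221 and 630.5 in KO ESCs, against 111, 141 and 593 in WT ESCs, with the C libraries highest. Me1 shares 28.3% of its 50-base words with other genes.

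Summed normalized counts of the 19 sterol genes were 6192, 6266 and 8302 in KO ESCs, against 12027, 12402 and 12395 in WT ESCs. Every KO sum lay below every WT sum. The 11 fatty acid genes summed to 13934, 13966 and 13709 in KO ESCs, against 24994, 25265 and 15699 in WT ESCs, with WT library C near the KO level. Marker lists moved beside these sums. The 6 cell cycle markers summed to 8249, 9238 and 12626 in KO ESCs, against 15494, 17585 and 16299 in WT ESCs. In the 8-library fit 5 of 6 fell, against 27.8% of all genes. In the 10-library fit 0 passed, while 1.31% of all genes rose and 1.07% fell. The 8 fibroblast markers summed to 11124, 11408 and 189 in KO ESCs, against 6608, 6738 and 237 in WT ESCs. Col1a1, Col1a2 and Col3a1 made up most of the sums in A and B. These 3 and Dcn were higher in KO in A and B, while Postn, Thy1 and Pdgfrb were lower. In the 8-library fit 4 of the 8 rose and 2 fell, against 27.4% and 27.8% of all genes, and 0 passed in the 10-library fit. Both C sums were far below A and B, with 1 of the 8 markers at 0 in KO library C and 2 in WT library C. Thy1 went the other way, with 97.2 in KO library C and 92.2 in WT library C, above A and B of each genotype. The 8 naive ESC markers summed to 31979, 29713 and 20292 in KO ESCs, against 18554, 18207 and 36889.5 in WT ESCs, in opposite order in C. Of these 8, 6 rose and 0 fell in the 8-library fit, against 27.4% and 27.8% of all genes, and 0 passed in the 10-library fit. The part of these in the sterol and fatty acid differences was not tested. The 6 markers of adipocytes, cells rich in fatty acid synthesis, summed to 83.6 to 143 over the libraries, with Lipe the most abundant of them in each. Of their defining markers, Adipoq was at 0 in 2 of 3 KO and 3 of 3 WT ESC libraries. In KO ESC library C Adipoq had 27.8, its highest value in the 10 libraries. Fabp4 was at 0 in 2 of 3 KO and 1 of 3 WT ESC libraries. In EBs 0 of the 6 were at 0 in any library. Fabp4 had 26.1 and 32.3 in KO EBs, against 19.2 and 35.3 in WT EBs. Adipoq had 4.94 and 5.94 in KO EBs, against 1.53 and 1.72 in WT EBs.

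**Figure D3:**
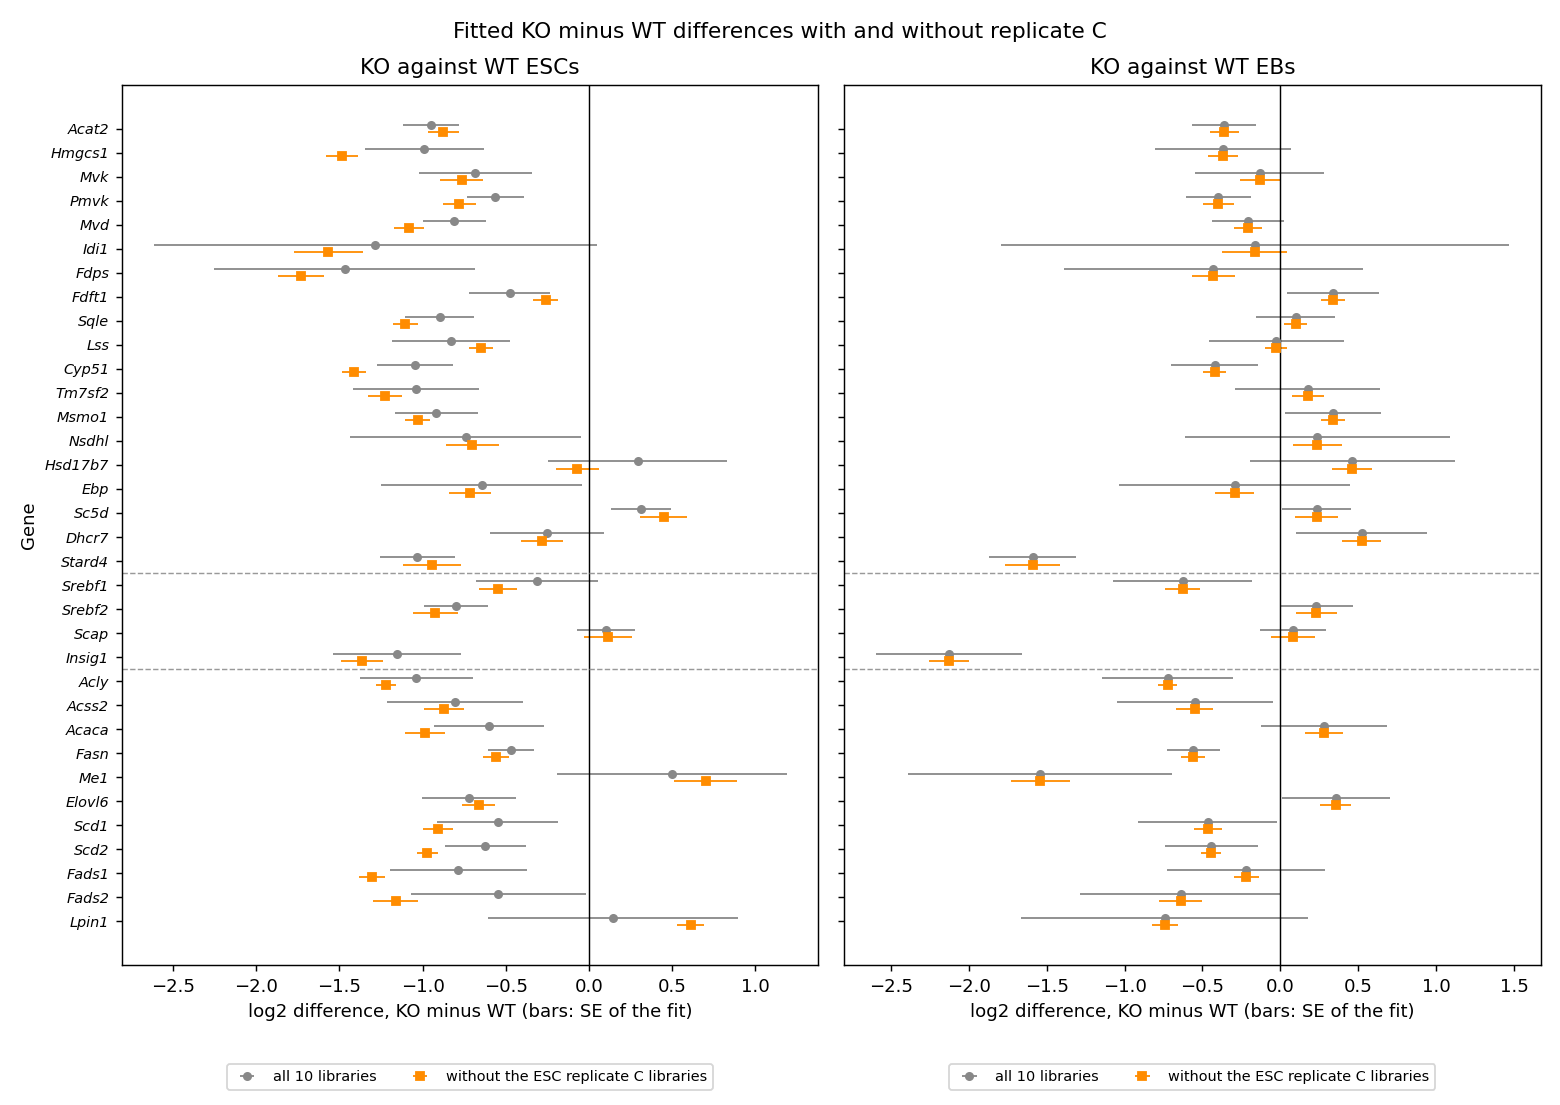
KO minus WT difference (log2, point) with the SE of the fit (bar) for each gene in ESCs and in EBs, with all 10 libraries (grey circles) and without the ESC replicate C libraries (orange squares). In EBs both fits give the same point, since the EB libraries are the same, and the bars are longer with all 10 libraries.

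In KO EBs Insig1, Stard4, Me1 and most other fatty acid genes fell in the 8-library fit. The median difference was -0.13 for the sterol genes and -0.55 for the fatty acid genes, against -0.02 for all genes tested, and the difference between the branches was not tested. In the 10-library fit 0 of the 34 genes rose and 1, Stard4, fell, against 0.469% and 1.37% of all genes. An unadjusted p under 0.05 was found there for 3 of the 34, and for 2189 of all 15781 genes. In the 8-library fit 5 rose and 17 fell, against 24.1% and 27.9%. With the replicate block 1 rose and 6 fell, against 9.27% and 13.4%, and DESeq2 called 3 lower, against 6.09%. Both KO EB libraries lay below both WT EB libraries for 20 genes, as for 38.9% of all genes, and above them for 10, as for 36.0%. Each EB group has 2 libraries, and the part of this in the large shares of genes that do not overlap was not tested.

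Stard4 had 62.9 and 73.0 in KO EBs, against 178 and 238 in WT EBs, and both KO libraries lay far below both WT libraries. The difference was -1.59 ± 0.28 (SE, adjusted p = 0.0363) with all libraries. Leaving out any single library other than an ESC replicate C library took its adjusted p above the threshold, to between 0.071 and 0.343. Insig1 had 774 and 652 in KO EBs, against 3367 and 2864 in WT EBs, the largest difference of the 34 genes in EBs. It was -2.13 ± 0.47 (SE, adjusted p = 0.0755) with all libraries, -2.13 ± 0.13 (SE, adjusted p = 4.09e-06) without C and -2.13 ± 0.18 (SE, adjusted p = 0.00418) with the block. Srebf1 had 564 and 505 in KO EBs, against 854 and 797 in WT EBs, both KO libraries lower, with a difference of -0.63 ± 0.45 (SE, adjusted p = 0.686) with all libraries and -0.63 ± 0.11 (SE, adjusted p = 0.00184) without C. Srebf2 had 1209 and 991 in KO EBs, against 1016 and 856 in WT EBs, and the ranges overlapped. It passed in neither fit, at 0.23 ± 0.24 (SE, adjusted p = 0.865) with all libraries.

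Of the sterol genes in EBs, the 8-library fit called 6 of 19 lower and 4 higher, near the shares of all genes, 27.9% and 24.1%. Lower were Acat2, Hmgcs1, Pmvk, Fdps, Cyp51 and Stard4, and higher were Fdft1, Msmo1, Hsd17b7 and Dhcr7. In each of the genes named next the groups did not overlap. Hmgcs1 had 706 and 792 in KO EBs, against 922 and 1012 in WT EBs, a difference of -0.37 ± 0.10 (SE, adjusted p = 0.012) without C. Msmo1 had 339 and 356 in KO EBs, against 272 and 276 in WT EBs, higher in KO, at 0.34 ± 0.08 (SE, adjusted p = 0.00552) without C. Dhcr7 had 114 and 104 in KO EBs, against 69.7 and 81.8 in WT EBs, also higher in KO, at 0.52 ± 0.13 (SE, adjusted p = 0.00799) without C. None of these 3 passed in the 10-library fit, where the adjusted p was 0.919, 0.81 and 0.752. Lss had 491 and 492 in KO EBs, against 500.3 and 499 in WT EBs and passed in neither fit, at -0.02 ± 0.43 (SE, adjusted p = 1) with all libraries, and its sign turned with another scaling of the libraries.

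Of the fatty acid genes in EBs, 9 of 11 fell and 1, Elovl6, rose in the 8-library fit, against 27.9% and 24.1% of all genes. Me1 had 133 and 178 in KO EBs, against 398 and 511 in WT EBs, and both KO libraries were far below both WT libraries. The difference was -1.54 ± 0.85 (SE, adjusted p = 0.517) with all libraries, -1.54 ± 0.19 (SE, adjusted p = 0.000213) without C and -1.54 ± 0.19 (SE, adjusted p = 0.00845) with the block. Lpin1 had 346 and 372 in KO EBs, against 595 and 606 in WT EBs, a difference of -0.74 ± 0.92 (SE, adjusted p = 0.932) with all libraries and -0.74 ± 0.08 (SE, adjusted p = 0.000132) without C. Both KO libraries lay below both WT libraries for Lpin1, and the same held for Acly, Fasn and Fads2. Acly had 2298 and 2289 in KO EBs, against 3750.4 and 3819 in WT EBs, a difference of -0.72 ± 0.42 (SE, adjusted p = 0.553) with all libraries and -0.72 ± 0.15 (SE, adjusted p = 0.0308) with the block. Fasn had 1898 and 1786 in KO EBs, against 2839 and 2595 in WT EBs, at -0.56 ± 0.17 (SE, adjusted p = 0.175) with all libraries and -0.56 ± 0.10 (SE, adjusted p = 0.0173) with the block. Fads2 had 198 and 156 in KO EBs, against 296 and 255 in WT EBs, at -0.64 ± 0.65 (SE, adjusted p = 0.86) with all libraries and -0.64 ± 0.14 (SE, adjusted p = 0.00422) without C. The other genes of chromosome 11 had a median difference of -0.44 in EBs, beside -0.72 for Acly, -0.56 for Fasn and -0.63 for Srebf1. The part of the chromosome in these differences was not tested. Acaca, on the same chromosome, had 359 and 375 in KO EBs, against 279 and 327 in WT EBs and passed in neither fit, at 0.28 ± 0.41 (SE, adjusted p = 0.97) with all libraries. Elovl6 had 924 and 1029 in KO EBs, against 722 and 804 in WT EBs, higher in both KO libraries, at 0.36 ± 0.09 (SE, adjusted p = 0.0416) with the block.

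Endoderm markers differed between the genotypes in EBs. The 11 endoderm markers summed to 161 and 150.3 in KO EBs, against 8304 and 7867 in WT EBs, and to 75.8 to 249.8 in ESCs. Of the 11, 8 fell in the 10-library fit of KO against WT EBs, against 1.37% of all genes. All 11 fell in the 8-library fit, against 27.9% of all genes. Afp was at 0 in both KO EB libraries and Ttr in KO library A, while 0 of the 11 were at 0 in WT EBs. The endoderm sum was high in the same libraries, WT EBs A and B, where Insig1 was highest. Its part in the differences of Insig1, Stard4 and Me1 was not tested. The cell cycle markers summed to 8945 and 10201 in KO EBs, against 13684 and 15793 in WT EBs, with Top2a the largest. The fibroblast markers summed to 2187 and 2139 in KO EBs, against 3186 and 3164 in WT EBs. In the 8-library fit 5 of 6 cell cycle markers fell, and of the 8 fibroblast markers 1 rose and 5 fell. The shares of all genes there were 24.1% higher and 27.9% lower. In the 10-library fit 0 of either list passed, against 0.469% higher and 1.37% lower. Mki67 had 1922 and 2310 in KO EBs, against 1692 and 1997 in WT EBs, higher in KO in each letter. Dcn was also higher in KO, at 73.5 and 84.1 against 32.2 and 32.7. The naive ESC markers summed to 15269.9 and 14288 in KO EBs, against 9093 and 8594 in WT EBs. In the 8-library fit 6 of 8 rose and 1 fell, against 24.1% and 27.9% of all genes, while 0 passed in the 10-library fit. The part of these lists was not tested either.

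**Figure D4:**
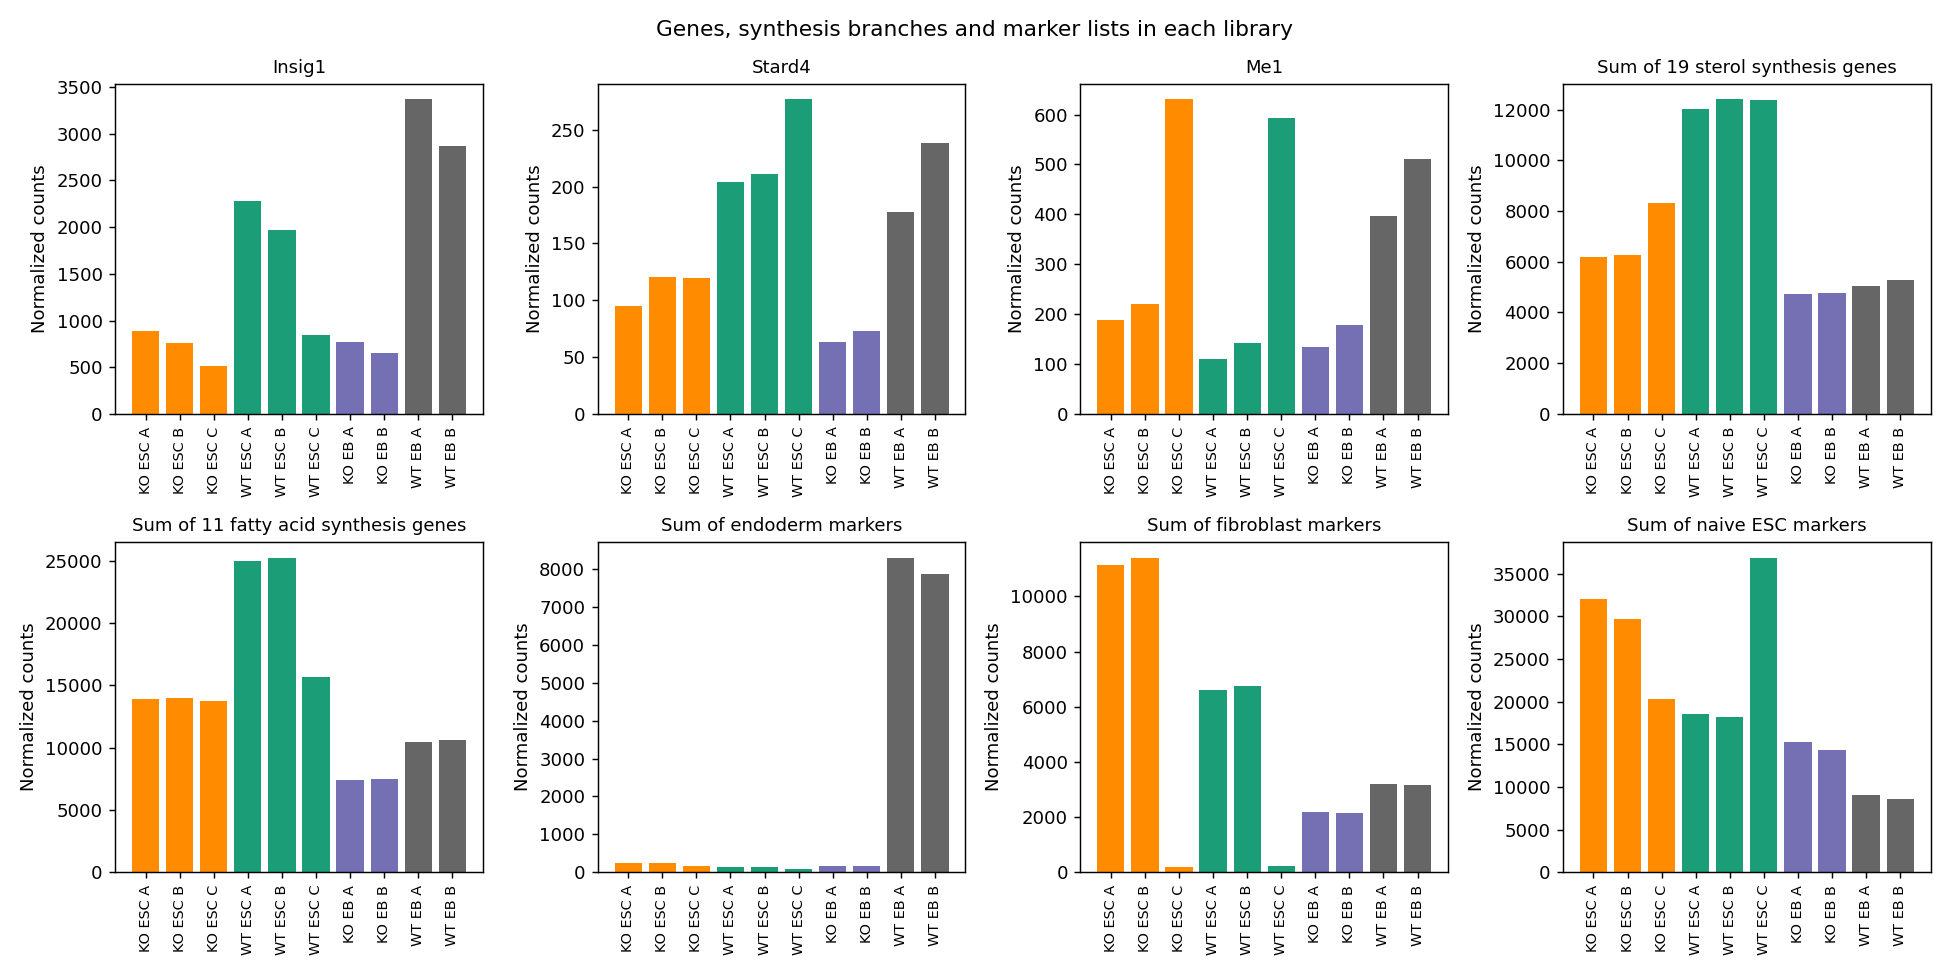
Normalized counts in each library of Insig1, Stard4 and Me1, of the summed sterol and fatty acid genes, and of the summed endoderm, fibroblast and naive ESC markers, in the order KO ESCs, WT ESCs, KO EBs, WT EBs. Insig1 is highest in WT EBs (3367 and 2864), where the endoderm markers sum to 8304 and 7867.

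Between serum-free ESCs and serum-grown EBs of WT cells, nearly all sterol genes and most fatty acid genes were lower in EBs. The sterol median was -1.14 and the fatty acid median -0.87, against 0.09 for all genes tested, and all 19 sterol genes had a negative difference. In the 10-library fit 0 of the 34 genes rose and 6 fell, against 2.01% and 0.475% of all genes. An unadjusted p under 0.05 was found there for 19 of the 34, and for 2287 of all 15781 genes. Without C 3 rose and 28 fell, against 22.5% and 23.7%, and with the block 2 rose and 16 fell, against 5.09% and 4.44%. The block takes the letters of ESCs and of EBs apart. Its values for EBs against ESCs therefore compare fitted levels of letter A and not group means. DESeq2 called 16 lower, against 3.31%. All WT EB libraries lay below all WT ESC libraries for 22 genes (19.4% of all genes) and above them for 2 (23.2%), Insig1 and Scap. These libraries also enter the comparisons of KO with WT.

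Among the 6 genes that passed with all 10 libraries, Scd1 and Scd2 had the largest differences. Scd1 had 180.1 and 164 in WT EBs, against 2253, 2253 and 859.7 in WT ESCs, with every EB library far below every ESC library, and fell, with a difference of -3.24 ± 0.41 (SE, adjusted p = 0.00988) with all libraries. Scd2 had 719 and 731 in WT EBs, against 4648, 4754 and 4197 in WT ESCs, again with no overlap, and fell, with a difference of -2.64 ± 0.27 (SE, adjusted p = 0.00514). The other calls were sterol genes. Acat2 had 269 and 267 in WT EBs, against 604, 667 and 843 in WT ESCs, with EBs below all ESC libraries, and fell, with a difference of -1.38 ± 0.19 (SE, adjusted p = 0.0127). Pmvk had 255 and 293 in WT EBs, against 621, 628 and 504 in WT ESCs and fell, with a difference of -1.09 ± 0.19 (SE, adjusted p = 0.0316). EBs were below all ESC libraries for Pmvk, Sqle and Msmo1 too. Sqle had 354 and 372 in WT EBs, against 812, 817 and 866 in WT ESCs and fell, with a difference of -1.19 ± 0.23 (SE, adjusted p = 0.0442). Msmo1 had 272 and 276 in WT EBs, against 1037, 1075 and 606 in WT ESCs and fell, with a difference of -1.67 ± 0.28 (SE, adjusted p = 0.0267). All 6 lost the call when either WT EB library was left out, with adjusted p between 0.104 and 0.407. Acat2 also lost it without WT ESC library B (Pmvk, Sqle and Msmo1 without any ESC library A or B or any EB library), and Sqle without WT ESC library C or by edgeR.

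Fdps, Idi1, Nsdhl, Tm7sf2 and Dhcr7 had large differences that did not pass with all 10 libraries and passed without C. Fdps had 95.0 and 89.5 in WT EBs, against 456, 368 and 1456 in WT ESCs, at -2.75 ± 0.88 (SE, adjusted p = 0.185) with all libraries and -2.14 ± 0.14 (SE, adjusted p = 6.83e-06) without C. Idi1 had 36.8 and 29.3 in WT EBs, against 93.0, 93.1 and 1001 in WT ESCs, at -2.61 ± 1.49 (SE, adjusted p = 0.507) with all libraries and -1.48 ± 0.21 (SE, adjusted p = 0.000536) without C. Nsdhl had 72.0 and 93.0 in WT EBs, against 175, 197 and 758 in WT ESCs, at -1.85 ± 0.78 (SE, adjusted p = 0.33) with all libraries and -1.17 ± 0.16 (SE, adjusted p = 0.000451) without C. In these 3 the ESC libraries ranged widely, with C highest. Tm7sf2 had 95.0 and 90.4 in WT EBs, against 418, 392 and 168 in WT ESCs, at -1.69 ± 0.43 (SE, adjusted p = 0.0995) with all libraries and -2.01 ± 0.23 (SE, adjusted p = 0.0137) with the block. Dhcr7 had 69.7 and 81.8 in WT EBs, against 192, 186 and 339 in WT ESCs, at -1.59 ± 0.38 (SE, adjusted p = 0.0879) with all libraries and -1.35 ± 0.18 (SE, adjusted p = 0.0189) with the block. The block values of Tm7sf2 and Dhcr7 compare fitted levels of letter A.

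A few genes did not follow. Insig1 had 3367 and 2864 in WT EBs, against 2275, 1967 and 849.9 in WT ESCs, higher in every EB library, with 0.99 ± 0.43 (SE, adjusted p = 0.349) with all libraries and 0.55 ± 0.13 (SE, adjusted p = 0.00709) without C. Scap rose by 0.49 ± 0.10 (SE, adjusted p = 0.0446) between the fitted letter A levels of the block fit. Me1 had 398 and 511 in WT EBs, against 111, 141 and 593 in WT ESCs, above A and B of the ESCs and below C. In the block fit its letter A level rose by 1.69 ± 0.22 (SE, adjusted p = 0.0197), which leaves the high level of ESC library C aside. Stard4 had 178 and 238 in WT EBs, against 204, 211 and 277 in WT ESCs, with overlapping ranges. Sc5d passed in neither fit, with 165 and 172 in WT EBs, against 196, 238 and 250.3 in WT ESCs and a difference of -0.42 ± 0.20 (SE, adjusted p = 0.394), and neither did Lpin1, with 595 and 606 in WT EBs, against 655, 713 and 264 in WT ESCs and 0.27 ± 0.84 (SE, adjusted p = 0.893) with all libraries.

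In KO cells EBs were also below ESCs for most of the 34 genes. The sterol median was -0.52 and the fatty acid median -0.62, against 0.06 for all genes tested. In the 10-library fit 0 of the 34 genes rose and 2 fell, against 0.45% and 0.355% of all genes. An unadjusted p under 0.05 was found there for 8 of the 34, and for 2136 of all 15781 genes. Without C 2 rose and 22 fell, against 21.3% and 26.0%, and with the block 0 rose and 3 fell, against 3.47% and 4.85%. Here too the block compares fitted levels of letter A. DESeq2 called 5 lower, against 4.16%. All KO EB libraries lay below all KO ESC libraries for 19 genes (20.5% of all genes) and above them for 1, Scap (21.2%).

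Scd1 had 117 and 132 in KO EBs, against 1189, 1215 and 967 in KO ESCs, and fell, with a difference of -3.16 ± 0.41 (SE, adjusted p = 0.0288) with all libraries. Every EB library lay far below every ESC library. Scd2 had 541 and 526 in KO EBs, against 2437, 2358 and 4416 in KO ESCs, and fell, with a difference of -2.46 ± 0.27 (SE, adjusted p = 0.0257). Both lost the call when any single library other than an ESC replicate C library was left out, with adjusted p of 0.0743 to 0.432. Fasn had 1898 and 1786 in KO EBs, against 3325, 3150.4 and 3186 in KO ESCs, with no overlap, at -0.81 ± 0.16 (SE, adjusted p = 0.0645) with all libraries and -0.84 ± 0.11 (SE, adjusted p = 0.0232) with the block. Fdps had 68.5 and 67.9 in KO EBs, against 132, 114 and 755 in KO ESCs, at -1.71 ± 0.88 (SE, adjusted p = 0.463) with all libraries and -0.84 ± 0.14 (SE, adjusted p = 0.00121) without C. KO EBs lay below all KO ESC libraries for Fdps, and for Fads2 as well. Fads2 had 198 and 156 in KO EBs, against 388, 338 and 308 in KO ESCs, at -0.96 ± 0.59 (SE, adjusted p = 0.555) with all libraries and -1.04 ± 0.14 (SE, adjusted p = 0.000341) without C. Pmvk, Dhcr7 and Acat2 had differences of -0.92 ± 0.19 (SE, adjusted p = 0.0742), -0.82 ± 0.38 (SE, adjusted p = 0.413) and -0.79 ± 0.19 (SE, adjusted p = 0.103) with all libraries, and passed without C. Cyp51, the demethylase, Insig1 and Me1 passed in neither fit. Cyp51 had 434 and 457 in KO EBs, against 486, 493 and 625 in KO ESCs, at -0.25 ± 0.26 (SE, adjusted p = 0.724) with all libraries. Insig1 had 774 and 652 in KO EBs, against 886, 760.1 and 511 in KO ESCs, at 0.02 ± 0.43 (SE, adjusted p = 0.986), and Me1 had 133 and 178 in KO EBs, against 189, 221 and 630.5 in KO ESCs, at -0.94 ± 0.77 (SE, adjusted p = 0.672), with all libraries.

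**Figure D5:**
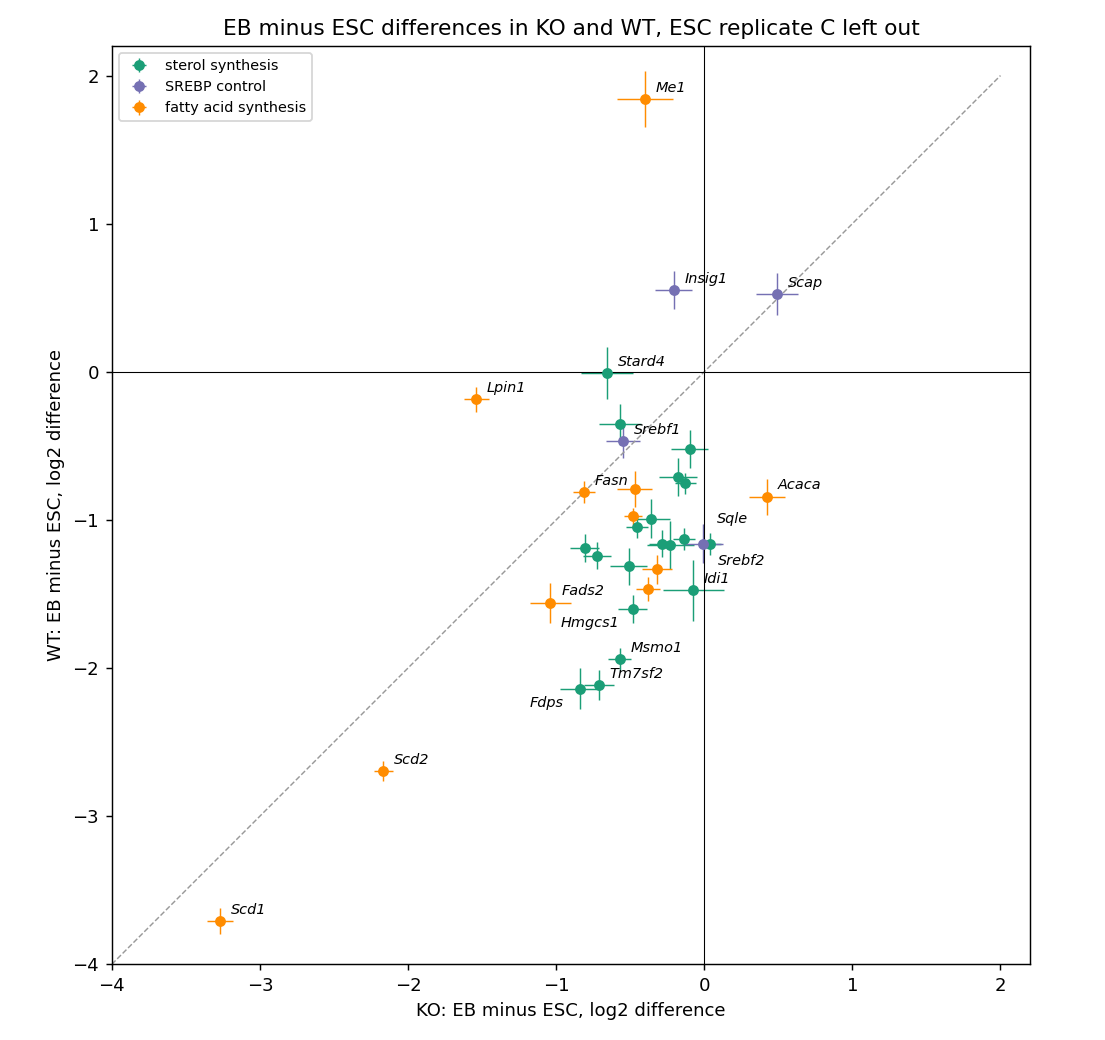
EB minus ESC difference (log2) of each gene in KO cells (horizontal axis) and in WT cells (vertical axis), fitted without the ESC replicate C libraries, with bars for the SE. On the dashed line both genotypes have the same difference. Most sterol genes lie below the line, Scd1 and Scd2 lie far down in both genotypes, and Me1, Insig1, Stard4 and Lpin1 lie above it.

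The difference of the KO effects, EBs minus ESCs, tests whether KO acted alike in both. It uses all 4 groups and so shares its libraries with every comparison above. The sterol median was 0.63 with all libraries and 0.80 without C, and the fatty acid median 0.18 and 0.50, against 0.00 and -0.01 for all genes tested. With all 10 libraries limma called 0 of the 34 genes, against 0.475% of all genes. An unadjusted p under 0.05 was found there for 4 of the 34, and for 1350 of all 15781 genes. On recovered reads edgeR called 0, against 0.646%, and DESeq2 called 1 higher, Srebf2, against 1.58%. In the 8-library fit 22 were higher and 3 lower, against 16.3% and 19.9% of all genes. With the block 3 were higher and 1 lower, against 2.81% and 4.99%.

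The 4 genes of the block fit were Msmo1 at 1.26 ± 0.15 (SE, adjusted p = 0.0175), Srebf2 at 1.03 ± 0.15 (SE, adjusted p = 0.0253), Elovl6 at 1.08 ± 0.11 (SE, adjusted p = 0.0128) and Me1 at -2.04 ± 0.24 (SE, adjusted p = 0.0173). For Msmo1 and Elovl6, KO was below WT in ESCs and above it in EBs. For Me1, KO was above WT in ESCs and below it in EBs. With all 10 libraries these 4 gave 1.26 ± 0.40 (SE, adjusted p = 0.334) for Msmo1, 1.03 ± 0.30 (SE, adjusted p = 0.297) for Srebf2, 1.08 ± 0.45 (SE, adjusted p = 0.546) for Elovl6 and -2.04 ± 1.09 (SE, adjusted p = 0.768) for Me1. Tm7sf2, Idi1, Fdps and Sqle had 1.22 ± 0.60 (SE, adjusted p = 0.7), 1.12 ± 2.11 (SE, adjusted p = 1), 1.04 ± 1.24 (SE, adjusted p = 1) and 1.00 ± 0.33 (SE, adjusted p = 0.365) with all libraries. In the 8-library fit those 4 were 1.40, 1.40, 1.30 and 1.20, and all 4 passed. Fasn, Srebf1 and Pmvk passed in neither fit, at -0.09 ± 0.22 (SE, adjusted p = 1), -0.31 ± 0.58 (SE, adjusted p = 1) and 0.16 ± 0.27 (SE, adjusted p = 1) with all libraries.

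Levels per exon kilobase set the genes in order within a group. In KO ESC libraries A and B, Acly was the highest of the 34, at a mean of 606 normalized counts per kilobase, followed by Scd2 at 439. With library C included the order turned in KO ESCs, with Scd2 at 562 and Acly at 534. In WT ESCs with C included Acly stayed highest at 1148, followed by Scd2 at 830. In WT ESC libraries A and B, Acly was again the highest, at a mean of 1411 normalized counts per kilobase, followed by Scd2 at 860.4, Insig1 at 686 and Hmgcs1 at 639.9. In the KO EBs Acly was highest at 434 per kilobase, and in the WT EBs Insig1 was highest at 1007. Idi1 was the lowest in KO EBs at 8.33 and in WT EBs at 9.42 per kilobase.

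The C libraries differed from A and B in both directions among the sterol genes. Idi1 in library C stood 4.25 above the mean of A and B on the log2 scale in KO ESCs and 3.41 in WT ESCs. For Nsdhl these were 1.91 and 2.02. Hmgcs1 in library C differed by 0.11 in KO ESCs and -1.38 in WT ESCs. Alignments that were not unique were 28.7% and 30.6% of records in KO and WT library C, and 36.9% to 46.1% in the other libraries. Their part in these shifts was not tested.

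Genes of neighbouring pathways were counted too. Of 15 other genes of fatty acid synthesis and activation, 0 rose and 2 fell in KO against WT ESCs with all 10 libraries, against 1.31% and 1.07% of all genes. Without C 3 rose and 9 fell, against 27.4% and 27.8% of all genes. Mid1ip1, an activator of acetyl-CoA carboxylase, had 156, 119.9 and 236 in KO ESCs, against 474, 407 and 458 in WT ESCs, with no overlap, and fell, with a difference of -1.43 ± 0.26 (SE, adjusted p = 0.0416). Hacd3, a dehydratase of fatty acid elongation, had 249.8, 297 and 267 in KO ESCs, against 499, 543 and 458 in WT ESCs, also with no overlap, and fell, with a difference of -0.88 ± 0.15 (SE, adjusted p = 0.0363). Elovl5, an elongase of polyunsaturated fatty acids, had 535 and 564 in WT EBs, against 991, 1068 and 1084 in WT ESCs, and fell in WT EBs, with a difference of -0.93 ± 0.14 (SE, adjusted p = 0.0172). Of 16 genes of sterol sensing, uptake, export and esterification, 0 passed in KO against WT ESCs or EBs with all libraries. The shares of all genes there were 1.31% higher and 1.07% lower in ESCs, and 0.469% and 1.37% in EBs. Without C, 2 rose and 5 fell in ESCs, against 27.4% and 27.8% of all genes, and 5 rose and 7 fell in EBs, against 24.1% and 27.9%. Soat1, which esterifies cholesterol for storage, had 1112 and 1255 in WT EBs, against 182, 195 and 184 in WT ESCs, and rose in WT EBs by 2.65 ± 0.36 (SE, adjusted p = 0.0131). In KO EBs it had 280.4 and 284, a KO difference of -2.06 ± 0.40 (SE, adjusted p = 0.0508). Of 8 genes of the isoprenoid branches and 12 tested of fatty acid oxidation, 0 passed in any comparison with all 10 libraries. In the comparisons of 2 groups, 0.355% to 2.01% of all genes passed in each direction there, and 0.475% passed for the difference of KO effects.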

How the data were processed

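Gene expression was measured by RNA-seq in 10 libraries of Mettl3-KO and WT ESCs and EBs; a fibroblast sample is not analysed here. The authors deposited normalized counts per gene (a signal scale: read counts divided by a size factor for each library). Per the submitters' processing notes reads were aligned to build mm10, and the tools named are TopHat2 2.0.10, Bowtie, HTSeq 0.6.0, CASAVA 1.8.2 and DESeq; the annotation release and strand setting are not given in the sources used here. Whole reads were recovered from the deposited signal for 100% of values within a tolerance of 0.01, and 5 summary lines were left out. The value of 1 read was 0.544 to 3.29 normalized counts, which limits low values.

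Log2(value + 1) of genes with a mean of 10 or more was fitted with limma 3.58.1 (R 4.3.3; 4 group means, trend and robust options, two-sided) and adjusted by Benjamini-Hochberg over 15781 genes. Alternatives were the replicate letter as a block, leaving out ESC replicate C or each library, a pseudocount of 8, no filter or a mean of 50, edgeR 4.0.16 or DESeq2 1.42.0 on recovered reads, TMM scaling, and only the groups compared. Deviations of same-lettered ESC libraries correlated at r = 0.845 (A), 0.828 (B) and 0.858 (C), and letters were taken as pairs in ESCs because each r was above 0.1. KO A with WT B (0.812) and KO B with WT A (0.809) were nearly as high, so these values set C apart from A and B and do not tell A from B. In the 2 EB pairs r was 0.369. The block held separate terms for the letters of ESCs and of EBs, with A as the reference. Block values of EBs against ESCs depend on that reference. Those of KO against WT and of the difference of KO effects do not. Genes named with full statistics are, per comparison, the up to 8 with the largest difference among those passing with or without replicate C, plus the most abundant per branch that passed in neither; others are described by role and were chosen after their values were seen. The genes and lists were chosen with earlier results of these data known. The model fits were first run on simulated counts, with the same spread setting for every library and changes in KO ESCs only. That simulation held no libraries set apart like ESC replicate C, so it does not bear on how the fits treat them. Symbols and exon lengths came from GENCODE; promoters came from RefSeq (GRCm38.p6).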

Additional observations from a re-analysis of the deposited data

How the results depend on the processing

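The number of the 34 genes called depended on the settings. For no filter, only the groups compared and single libraries left out, the share of all genes called is not given here. Whether the counts under those settings exceed that share therefore cannot be told from them. In KO against WT ESCs, 1 was called with all 10 libraries. The count was 19 with the replicate letter as a block, 31 without the ESC replicate C libraries, 13 by DESeq2, 0 with no filter on low values and 0 with only the groups compared. In KO against WT EBs, 1 was called, against 7 with the block, 22 without C, 3 by DESeq2, 2 with no filter and 20 with only the groups compared. In WT EBs against ESCs, 6 were called, against 18 with the block, 31 without C, 16 by DESeq2 and 1 with only the groups compared. In KO EBs against ESCs, 2 were called, against 24 without C, 5 by DESeq2 and 0 with only the groups compared. For the difference of KO effects, 0 were called, against 4 with the block, 25 without C and 1 by DESeq2. The cause of these changes was not tested. Settings that leave libraries out also have fewer of them. Only the groups compared could not be fitted for the difference, which needs all 4 groups. With each library left out in turn the counts ran 0 to 13 in KO against WT ESCs, 0 to 2 in KO against WT EBs, 0 to 14 in WT EBs against ESCs, 0 to 6 in KO EBs against ESCs, and 0 to 3 for the difference. A setting that leaves 1 EB library in a group assumes that it varies like the other groups.

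Differences that passed with all 10 libraries kept their sign under every alternative. Some that did not pass turned sign. Without the C libraries the differences that turned were Hsd17b7 in KO against WT ESCs (-0.069), Lpin1 in WT EBs against ESCs (-0.19), and Fads2 in the difference of KO effects (0.52). In KO EBs against ESCs without C they were Sqle (0.037), Lss (-0.13), Hsd17b7 (-0.18), Srebf2 (-0.0056) and Insig1 (-0.21). The replicate block pairs no EB library with an ESC library and compares EBs with ESCs at the fitted letter A levels. There Lpin1 turned in WT EBs against ESCs (-0.39), and Lss (-0.018), Hsd17b7 (-0.31), Srebf2 (-0.039) and Insig1 (-0.30) turned in KO EBs against ESCs. By edgeR, Lss turned in KO against WT EBs (0.0039), Acaca in KO EBs against ESCs (-0.11) and Fads2 in the difference (0.16). By DESeq2, Insig1 (-0.0079) and Acaca (-0.10) turned in KO EBs against ESCs and Fads2 in the difference (0.18). With TMM scaling, Lss turned in KO against WT EBs (0.044) and Scap in the difference (0.038).

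With 1 library left out at a time, these differences that had not passed turned sign, given as lowest to highest. In KO against WT ESCs, Hsd17b7 (-0.35 to 0.63), Dhcr7 (-0.56 to 0.028), Me1 (-0.044 to 1.24) and Lpin1 (-0.34 to 1.07). In KO against WT EBs, Scap (-0.033 to 0.19). In WT EBs against ESCs, Hsd17b7 (-0.71 to 0.27), Stard4 (-0.36 to 0.063), Srebf1 (-0.47 to 0.21) and Lpin1 (-0.19 to 0.53). In KO EBs against ESCs, Mvk (-0.36 to 0.074), Sqle (-0.33 to 0.037), Lss (-0.13 to 0.49), Hsd17b7 (-0.18 to 0.30), Srebf2 (-0.11 to 0.18), Insig1 (-0.21 to 0.19), Acss2 (-0.47 to 0.048), Acaca (-0.27 to 0.42) and Elovl6 (-0.32 to 0.13). In the difference of KO effects, Idi1 (-0.017 to 2.54), Hsd17b7 (-0.17 to 0.81), Ebp (-0.19 to 0.96), Sc5d (-0.15 to 0.037), Srebf1 (-0.57 to 0.11), Scap (-0.14 to 0.094), Acss2 (-0.079 to 0.66), Fasn (-0.16 to 0.0075), Scd1 (-0.15 to 0.54) and Fads2 (-0.47 to 0.60). The ESC replicate C libraries hold the fewest reads in genes, which limits low counts there, and 2 libraries a group limit every EB value.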
